A study of Mus musculus with 12 samples.

Results

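The 8 genes described here serve thyroid hormone signalling: the receptors *Thrb* and *Thra*, the deiodinases *Dio2* and *Dio3*, the transporter *Slc16a10*, the hormone-binding protein *Crym*, and the target genes *Klf9* and *Hr*. They were taken by name from the 37432 genes of the expression table, and each name matched 1 row. The set was chosen by the measured level of *Thrb*, which was near 0 in every library of one genotype, so the genotype difference of *Thrb* is a description and was not tested. The other members were followed to see how the second receptor, the enzymes, the transport and binding proteins and the targets stood beside it.

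RNA-seq was done on pieces of the cochlea, the coiled hearing organ, from mice at P14. Wild-type mice were compared with *Gjb2* 35delG/35delG mice, which are homozygous for a frameshift deletion in the gene of the gap junction protein connexin 26 and are labelled KO. Each genotype was sampled in the apical, middle and basal turn with 2 biological repeats, which gives 6 groups and 12 libraries. Nothing says how many animals, cochleae or stem cell lines stand behind a library, so p-values measure the spread between these pieces. The homozygous mice were males that came from embryonic stem cells injected into tetraploid embryos (tetraploid complementation). They were born by cesarean section, had ICR foster mothers and carried an almost C57BL/6J background. The wild-type males were of the same age and purchased. Genotype and origin of the mice cannot be told apart in any library. The male label was held against sex-linked genes: *Ddx3y* and *Uty* of the Y chromosome were at least 18.1 and 4.95 in all 12 libraries and *Xist*, which female cells express, at most 0.0746. *Eif2s3y* of the Y chromosome was nevertheless near 0 in every homozygous library, as given below, and *Kdm5d*, also Y-linked, lay at 1.18 to 1.79 there against 3.69 to 6.44 in wild-type libraries. These Y-linked differences go with the genotype and cannot be told apart from it.

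Thyroid hormone is needed for the cochlea to mature before the onset of hearing. The hormone enters cells through membrane transporters, the prohormone T4 is turned into the active T3 by type 2 deiodinase, and type 3 deiodinase inactivates both. T3 binds the nuclear receptors that *Thra* and *Thrb* encode, which pair with retinoid X receptors on DNA, repress target genes without hormone and activate them with it. *Thrb* is required for hearing in mice and humans, and loss of *Dio2* or *Dio3* impairs hearing in mice.

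Sequences around the starts of *Thrb* and *Dio2*, on which the description turns, are shown. Every reading of *Thrb* below is a sum over the transcripts of the gene, whereas *Dio2* has 1 annotated transcript. RefSeq (GRCm38.p6, the build of the deposited coordinates) held 6 promoters for 5 of the 8 members, each with 250 bases before a start and 50 after it, and they are *Thrb* (with 2 starts), *Dio2*, *Dio3*, *Slc16a10* and *Klf9*. *Thra*, *Crym* and *Hr* had no entry. The receptor half-site AGGTCA, the TATA letters TATAAA and the cAMP response element TGACGTCA were searched on both strands, and capitals mark them where they read on the strand shown.
Thrb, start of the long transcripts, chr14:17660710-17661009, + strand: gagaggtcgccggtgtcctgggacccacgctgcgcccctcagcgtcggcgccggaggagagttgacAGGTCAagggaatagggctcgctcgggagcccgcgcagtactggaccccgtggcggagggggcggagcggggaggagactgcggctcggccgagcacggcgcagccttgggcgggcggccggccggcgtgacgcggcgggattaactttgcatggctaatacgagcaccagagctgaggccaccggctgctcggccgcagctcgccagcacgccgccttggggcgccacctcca
Thrb, inner start, chr14:17981394-17981693, + strand: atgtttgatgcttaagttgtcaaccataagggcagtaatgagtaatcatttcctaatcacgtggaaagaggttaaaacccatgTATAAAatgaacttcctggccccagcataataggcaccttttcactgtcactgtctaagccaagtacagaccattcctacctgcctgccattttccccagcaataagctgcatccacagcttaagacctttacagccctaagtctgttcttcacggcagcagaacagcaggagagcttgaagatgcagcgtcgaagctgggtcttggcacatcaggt
Dio2, chr12:90738989-90739288, - strand: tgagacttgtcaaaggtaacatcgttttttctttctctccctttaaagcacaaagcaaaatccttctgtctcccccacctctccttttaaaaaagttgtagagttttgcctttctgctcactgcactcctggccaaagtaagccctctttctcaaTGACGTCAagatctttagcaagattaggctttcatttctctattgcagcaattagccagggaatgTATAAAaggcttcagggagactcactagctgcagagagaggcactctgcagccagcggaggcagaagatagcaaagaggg
The outer *Thrb* promoter was rich in G and C (72.7%) and had 1 half-site, whose first base lay 184 bases before the start. The inner one had a G and C content of 46.0%, TATAAA and no half-site. *Dio2* had TATAAA from 30 bases before the start and TGACGTCA from 95 bases before it. Of all 32851 promoters of the same length, 16.3% held AGGTCA, 13.6% TATAAA and 1.79% TGACGTCA. A direct repeat of that half-site with a spacer of any 4 bases, the arrangement usually given for a thyroid hormone response element, was in 0.0152% of them and in none of the 6. These letter matches are a description of the windows and not binding sites.

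Levels are given as scaled FPKM, that is, the deposited FPKM divided by 1 factor per library (0.917 to 1.057). FPKM are the fragment number divided by transcript length and by the size of the library. Since FPKM are per length, values can be set side by side between genes. A gene was tested if it reached 1 FPKM in at least 2 libraries, which 16215 genes did. Differences are on log2(scaled FPKM + 1) from a limma fit over all 12 libraries, homozygous minus wild-type, with the standard error (SE) and a Benjamini-Hochberg adjusted p over all genes tested. Calls required a difference over 2-fold and an adjusted p that was under 0.01. Of the members, *Dio3* did not pass the filter on low values, and the other 7 did, *Thrb* through the wild-type libraries alone.

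The pieces differed in the tissue they held, which bears on the members since in such pieces fewer cells of a type and less RNA per cell cannot be told apart. Markers are given as the sum of scaled FPKM over a list, and all markers of the lists were in the table. The 5 oligodendrocyte and astrocyte markers summed to between 418 and 1309 in 4 libraries (wild-type middle 1, wild-type basal 2 and both homozygous basal pieces) and to at most 18.9 in the other libraries. The 10 hair cell markers summed to 5.06 and 8.25 and the 9 supporting cell markers to 18 and 96.7 in the homozygous basal pieces, against at least 20.3 and 603 in any other library. In homozygous basal 2 the hair cell marker *Slc26a5* was at 0 and the 6 spiral ligament markers summed to 476, against at least 2693 elsewhere. The 9 stria vascularis markers summed to between 363 and 1021 in the homozygous apical and middle pieces and to between 70.8 and 93.5 in the wild-type ones of those turns. The targeted *Gjb2* was present at between 58.6 and 450.6 in the homozygous libraries and between 139.7 and 434.5 in the wild-type libraries, so its level does not check the genotype labels. Its mean difference over the turns was -0.21 (SE 0.27, limma adjusted p = 0.746).

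**Figure D1:**
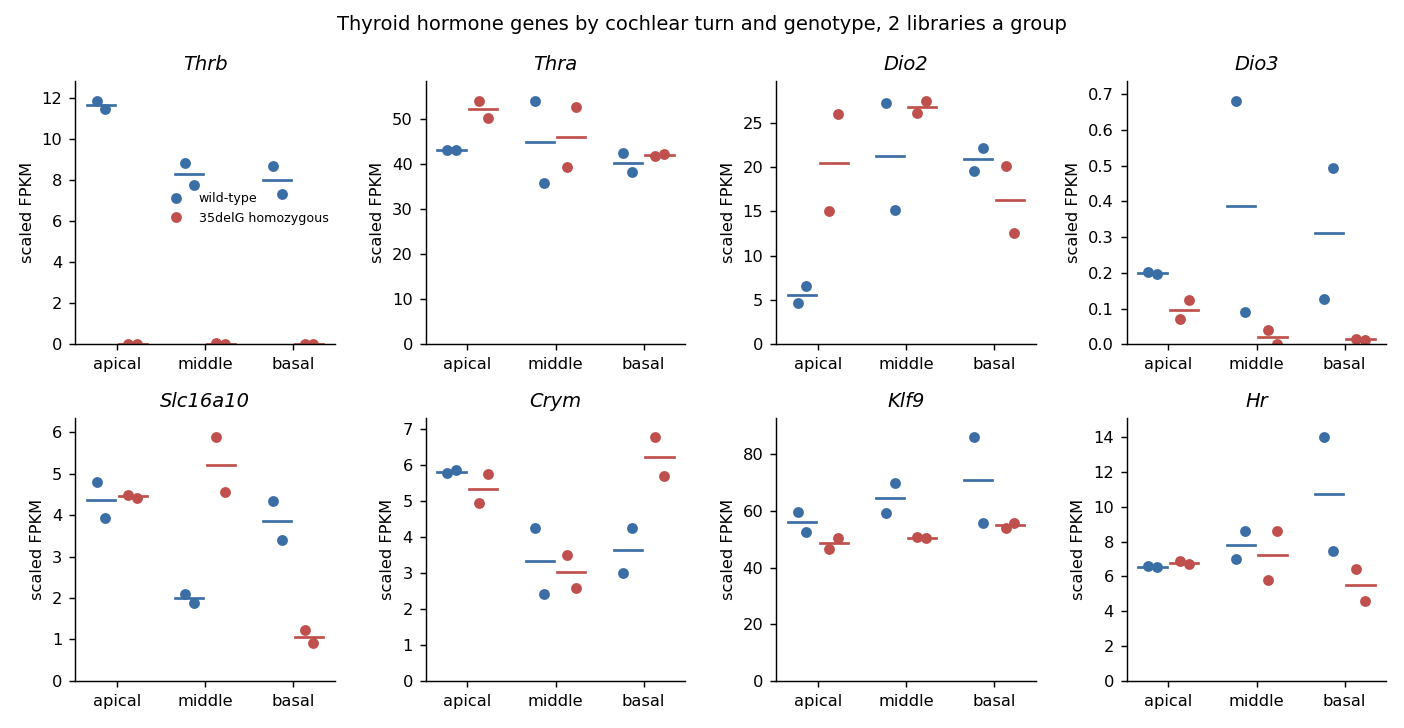
Scaled FPKM (y axis, from 0) of the 8 thyroid hormone genes in the apical, middle and basal turns. Each point is 1 library and each short line the mean of the 2 libraries of a group, blue for wild-type and red for 35delG homozygous; *Thrb* lies at 7.35 to 11.9 in wild-type and at 0 to 0.0363 in homozygous libraries, and the levels of the other genes overlap between the genotypes over the 12 libraries.

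*Thrb*, which encodes thyroid hormone receptor beta, spans 377.2 kb of chromosome 14, from 17660896 to 18038090 on the + strand (mm10). In wild-type cochlea it stood at 11.9 and 11.5 in its apical, 8.87 and 7.76 in its middle and 8.69 and 7.35 in its basal pieces. In homozygous cochlea it was listed at 0 in both apical and both basal pieces and at 0.0363 and 0.00833 in the middle ones. The genotypes did not overlap in any turn, and the highest homozygous value was far under the lowest wild-type value of 7.35. No fold is given, since 4 of the 6 homozygous libraries were at 0.

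The depth behind these values can be judged only in part, since read counts were not used here. For genes shorter than 150 bases, 1 step per library was taken, namely the recurring value with the most whole multiples among the values. It was between 0.085 and 0.257 FPKM. Between 6.23% and 11.0% of the values of up to 20 steps fell on whole multiples of it (within 0.002 of a whole number). The step is least secure in wild-type basal 1, where only 8 of 70 whole multiples lay at 1 step. If that step stands for a transcript covered once, depth differed by up to 3.02 times between libraries, and *Thrb* was covered 46 to 63.8 times in each wild-type library and at most 0.328 times in any homozygous one. The steps were the smallest, and depth so taken the highest, in homozygous apical 2. On that reading the homozygous values lie under a single coverage of the transcript.

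Within the wild-type cochlea *Thrb* was higher in both apical pieces than in any middle or basal piece. The difference of apical minus basal was 0.50 (SE 0.16, limma adjusted p = 0.154) and that of apical minus middle 0.45 (SE 0.16, adjusted p = 0.2), and neither passed. The middle and basal pieces overlapped, with a difference of 0.05 (SE 0.16, adjusted p = 0.925). The group means ran from apical (11.7) to middle (8.31) to basal (8.02), but the test separated no pair of turns. Over the 6 wild-type libraries the genes most like *Thrb* in Pearson's r of log2 levels were *Hps4* (0.995), *Prkca* (0.994) and *Smarcc2* (0.993), and these r describe 6 libraries in which 2 apical pieces stand apart from the rest.

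Over all 12 libraries, the genes most like *Thrb* were those that were also near 0 in every homozygous piece. *Zfp951* (r = 0.992) lay between 1.04 and 1.77 in wild-type libraries and at 0 in the homozygous ones. *Eif2s3y* (r = 0.987), a gene of the Y chromosome, lay between 13.2 and 32.1 against at most 0.0319. *4930481A15Rik* (r = 0.985) lay between 1.41 and 3.78 against at most 0.0488. These r follow from the split between the genotypes, which is how *Thrb* was chosen.

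The tested genes near *Thrb* did not share its pattern. By the deposited coordinates, no protein-coding gene lies in the 1 Mb before *Thrb*, and 5 tested genes lie in the 1 Mb after it. *Nr1d2*, a nuclear receptor of the clock 166.0 kb beyond the end of *Thrb*, averaged 30.6 over the wild-type libraries and 28.7 over the homozygous ones. *Rpl15* (mean 83.9 against 79.4), *Nkiras1* (8.77 against 7.48), *Ube2e1* (39.1 against 38.8) and *Ube2e2* (21.3 against 25.0) overlapped between the genotypes as well. None of the 5 was called in the mean over the turns, where the limma adjusted p was at least 0.471. *Nkiras1* moved in opposite directions between the middle (-1.80, SE 0.40, adjusted p = 0.0462) and basal turn (1.44, SE 0.40, adjusted p = 0.0385) without passing the threshold. Inside the span of *Thrb*, the small genes *Gm48320*, *Gm24140* and *Gm48321* were too low to be tested, at 0 in each homozygous piece, and reached no more than 0.291 in wild-type pieces. *Gjb2* and *Hr* lie on the same chromosome, with 39.1 Mb between *Thrb* and *Gjb2* and 13.4 Mb between *Gjb2* and *Hr*.

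**Figure D2:**
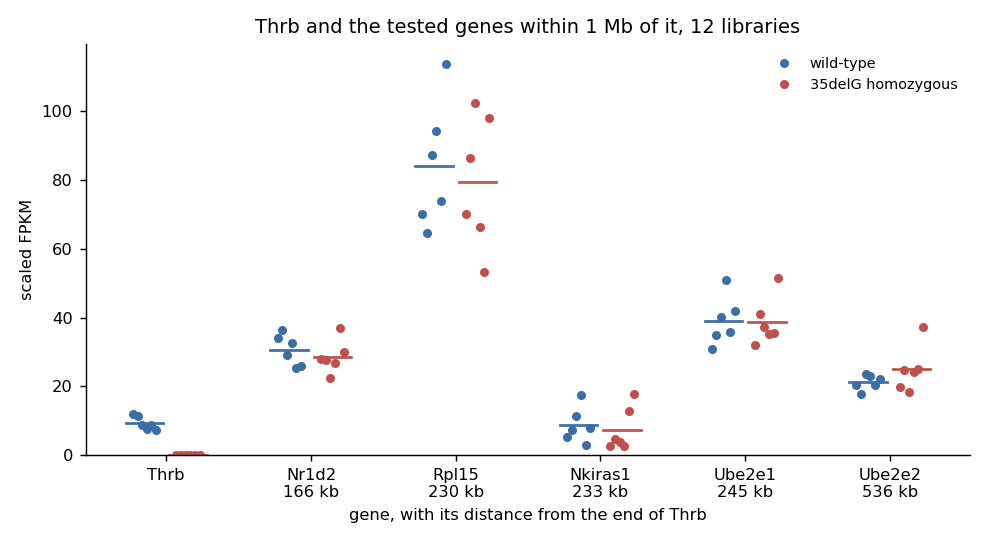
Scaled FPKM (y axis, from 0) of *Thrb* and of the 5 tested genes within 1 Mb of it by the deposited coordinates, ordered by distance from its end in kb. Points are the 12 libraries and short lines the means of 6, blue for wild-type and red for 35delG homozygous; only *Thrb* of these 6 genes has homozygous libraries that all lie under the wild-type ones.

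*Thra*, which encodes thyroid hormone receptor alpha, lies on chromosome 11 from 98741811 to 98769006. It was the receptor of higher level per length in all 12 libraries. In the wild-type cochlea it stood at 43.1 and 43.1 in its apical, 54.1 and 35.8 in its middle and 42.5 and 38.2 in its basal pieces. In the homozygous cochlea it stood at 54.2 and 50.4, 39.5 and 52.7, and 41.9 and 42.3 in the same turns. Only in the apical turn did the genotypes not overlap. The mean difference over the turns was 0.13 (SE 0.12, 95% interval -0.15 to 0.40, limma adjusted p = 0.639), and an exact two-sided permutation of the genotypes within turns gave p = 0.278. This permutation, here and below, takes the pieces of a genotype as independent, which the labels do not say. The homozygous mean was the higher one in all 3 turns, by 0.27, 0.05 and 0.06.

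Per length, *Thra* was 3.62 to 6.1 times the level of *Thrb* in the wild-type libraries, and *Thrb* made up 14.1% to 21.7% of the sum of both receptors. In homozygous libraries that share was at most 0.0918%. The sum of both was therefore carried by *Thra*. Gene-level values do not separate the receptor form of *Thra* from its splice form alpha-2, which does not bind the hormone.

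*Nr1d1*, which encodes the clock repressor REV-ERB alpha, is read from the other strand and shares 1075 bases of chromosome 11 with the end of *Thra* (98767932 to 98769006), of which the long *Thra-201* transcript uses 263 exonic bases. Whether the authors' quantification used strand is not given in the sources used here, so reads of the shared stretch may be assigned to either gene. *Nr1d1* stood between 11.3 and 32.3 for wild-type and between 7.47 and 25.2 in homozygous libraries, and its mean difference was -0.30 (SE 0.17, limma adjusted p = 0.392).

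*Dio2*, on the - strand of chromosome 12 from 90724552 to 90738438, encodes the deiodinase that makes T3 within the tissue. In wild-type apical pieces it stood at 4.66 and 6.53, under all 10 other libraries. The homozygous apical pieces had 15.0 and 26.0. In the middle turn the wild-type pieces had 27.2 and 15.2 and the homozygous ones 26.1 and 27.5, and in the basal turn they had 19.6 and 22.1 against 20.1 and 12.5. The genotypes overlapped in the middle and basal turns and did not in the apical one. The apical difference was 1.67 (SE 0.34, 95% interval 0.90 to 2.45, limma adjusted p = 0.0653) and was not called. The wild-type apical pieces differed from the wild-type basal ones by -1.74 (SE 0.34, adjusted p = 0.0549) and from the middle ones by -1.71 (SE 0.34, adjusted p = 0.0717), again without a call. The difference of the genotype effect between the basal and apical turns was -2.04 (SE 0.48, adjusted p = 0.0294). At an adjusted p under 0.05, 11.2% of all genes were called in that comparison, and 2 members, *Dio2* and *Slc16a10*, were among them. The mean over the turns was 0.56 (SE 0.20, adjusted p = 0.17, exact permutation p = 0.167). Without the 4 libraries with oligodendrocyte markers, an alternative chosen after seeing the data, the mean over the apical and middle turns was 1.22. That value is not the same mean, since it leaves out the basal turn, where the homozygous mean was 0.78 times the wild-type one.

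Some markers of bone moved with *Dio2*. The mean of log2(scaled FPKM + 1) over the 6 bone markers was 2.71 and 3.51 in the wild-type apical pieces and between 3.96 and 7.45 in the other 10 libraries. Their sum ran from 50.9 and 112 in the wild-type apical pieces to between 271 and 2291 elsewhere, and none of the markers was at 0. Not all of them followed *Dio2*: *Bglap* was at 2.38 and 4.15 in the wild-type apical pieces and as low, at 2.17 and 4.11, in wild-type middle 2 and wild-type basal 1, where *Dio2* was at 15.2 and 19.6. The genes most like *Dio2* over the 12 libraries were *Chad* (Pearson's r of log2 levels 0.938), a protein of cartilage matrix, *Ibsp* (0.927), which encodes bone sialoprotein and is one of the 6 markers, and *Pdlim2* (0.922). *Ibsp* stood at 18.8 and 52.4 in the wild-type apical pieces and at 156.7 and 413.6 in the homozygous ones, and its apical difference was 2.98 (SE 0.72, limma adjusted p = 0.0987). The part of bone in the *Dio2* values was not tested.

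*Dio3*, which encodes the inactivating deiodinase, was low everywhere. It stood at 0.201 and 0.197 in the wild-type apical, 0.683 and 0.0895 in the middle and 0.128 and 0.493 in the basal pieces. The homozygous libraries had 0.0703 and 0.124 at the apex, 0.0387 and 0 in the middle turn and 0.0149 and 0.0126 at the base. In each turn both homozygous values were under both wild-type values, although the apical homozygous 0.124 exceeded the middle wild-type 0.0895. By the step described above, *Dio3* was covered between 0.687 and 4.25 times in wild-type and at most 1.47 times in homozygous libraries, so these values rest on few reads. The mean difference over the turns on log2(scaled FPKM + 1) was -0.30 (exact two-sided permutation p = 0.00926, which is the smallest that this permutation of independent pieces can give).

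*Dio3* belongs to an imprinted domain of chromosome 12, in which *Dlk1* and *Rtl1* are expressed from the paternal allele and *Meg3*, *Rian* and *Mirg* from the maternal one. Of the 6 genes of that list, 3 were tested. *Meg3* lay at 452.5 and 103.8 in the homozygous basal pieces and at 22.0 and 22.9 in the wild-type ones, a difference of 3.22 (SE 0.69, limma adjusted p = 0.016). In the middle turn its difference was -1.69 (SE 0.69, adjusted p = 0.169), so the turns had opposite signs and the mean over them was -0.11 (SE 0.40, adjusted p = 0.928). *Rian* likewise differed by 3.78 (SE 0.77, adjusted p = 0.0138) in the basal turn and by 0.02 (SE 0.45, adjusted p = 0.985) in the mean. *Mirg* was at 9.42 and 3.1 in the homozygous basal pieces, and *Dlk1* and *Rtl1* were at most 0.411 and 0.87 in any library. *Dio3* did not share the high values of *Meg3* and *Rian* in the homozygous basal pieces. The 10 neuron markers summed to 4137 and 4574 in those pieces and to 78.1 and 1138 in the wild-type basal ones. In the middle turn they summed to 628 and 95.9 in homozygous and to 2748 and 3547 in wild-type pieces. Their part in the *Meg3*, *Rian* and *Mirg* values was not tested.

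*Slc16a10*, on chromosome 10 from 40033532 to 40142255, encodes MCT10, which carries thyroid hormone and aromatic amino acids across membranes. It was the member with calls. In the apical turn it stood at 4.79 and 3.93 for wild-type pieces and at 4.49 and 4.42 for homozygous ones, which overlapped. In the middle turn the wild-type pieces had 2.10 and 1.88 and the homozygous ones 5.88 and 4.55. In the basal turn the order was the other way round, with 4.33 and 3.39 for wild-type and 1.23 and 0.907 for homozygous pieces. In the basal turn it fell by 1.23 on the log2 scale (SE 0.19, 95% interval -1.66 to -0.80, limma adjusted p = 0.00674), 1 of the 6 tested members besides *Thrb*, where 4.29% of all genes were called. The middle difference was 1.05 (SE 0.19, adjusted p = 0.0341) and did not pass at 0.01, although it did at 0.05, where 2.93% of all genes were called, and the apical one was 0.03 (SE 0.19, adjusted p = 0.958).

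**Figure D3:**
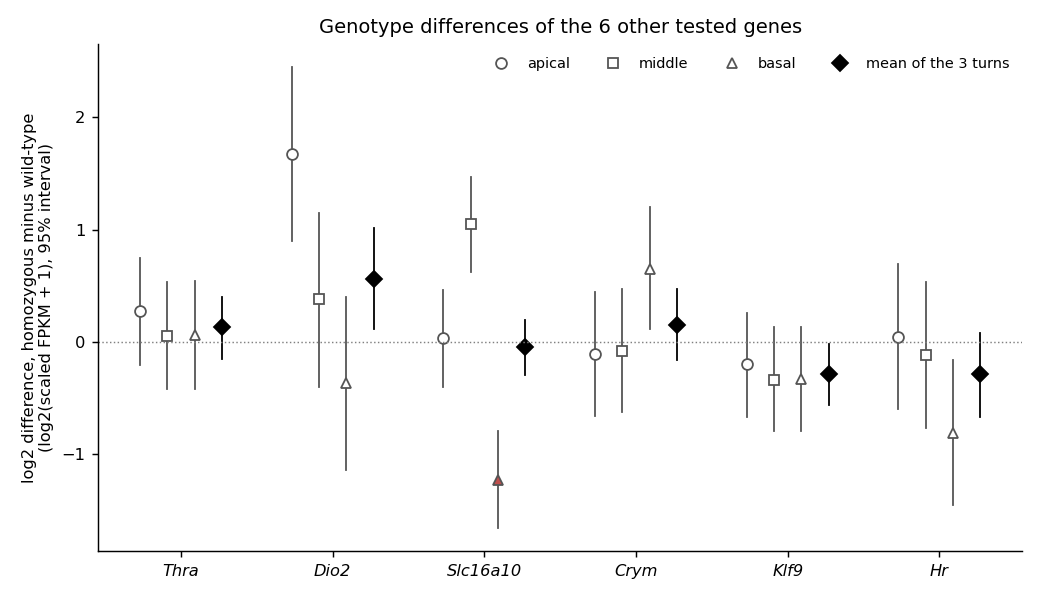
Genotype differences (y axis, homozygous minus wild-type on log2(scaled FPKM + 1)) of the 6 tested members besides *Thrb* by turn and for the mean of the 3 turns, with 95% intervals of the limma fit. The filled red triangle is the only called difference, *Slc16a10* in the basal turn at -1.23; its middle turn lies at 1.05 on the other side of 0.

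The genotype effect on *Slc16a10* differed between the basal and middle turns by -2.28 (SE 0.27, limma adjusted p = 0.00227), in a comparison in which 8.91% of all genes were called. Since the signs were opposite, its mean over the turns was -0.05 (SE 0.11, adjusted p = 0.865, exact permutation p = 0.796). Within the homozygous cochlea it was higher in the apical than in the basal pieces by 1.41 (SE 0.19, adjusted p = 0.00512; 4.06% of genes called) and higher in the middle than in the basal ones by 1.58 (SE 0.19, adjusted p = 0.00375; 4.66% of genes called). Within the wild-type cochlea the middle pieces were the low ones, with 0.84 for apical minus middle (SE 0.19, adjusted p = 0.091) and -0.69 for middle minus basal (SE 0.19, adjusted p = 0.146), without a call. The basal call was kept in only 3 of 12 fits that left out 1 library, namely without homozygous middle 1, homozygous middle 2 or wild-type basal 2. In those 12 fits the difference stayed between -1.37 and -1.09 and the adjusted p between 0.00393 and 0.0314. The difference between the basal and middle effects was called in 12 of 12.

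Markers of supporting and hair cells moved with *Slc16a10*. The mean of log2(scaled FPKM + 1) over the 9 supporting cell markers was 2.26 and 1.15 in the homozygous basal pieces and 4.09 and 4.17 in the wild-type middle ones, the 4 lowest values of the 12 libraries and the 4 libraries lowest in *Slc16a10*. It was 5.08 and 5.62 in the homozygous middle and 4.42 and 4.45 in the wild-type basal pieces. By the genotype difference, 6 of the 9 were above 0 in the middle turn (median 1.26) and 1 of 9 in the basal turn (median -1.67), and of the 10 hair cell markers 9 (median 1.06) and 0 (median -1.92). The supporting cell marker *Ceacam16* went the other way in the middle turn, with 1396.7 and 1171.8 for wild-type against 281.8 and 443.1 for homozygous pieces. It makes up most of a plain sum of the list in the wild-type middle pieces. Of the 4 libraries with oligodendrocyte markers 3 are basal, so the basal difference could not be recomputed without them, and the middle difference without them was also above 0 and not called (limma adjusted p = 0.0575). The 4 libraries lowest in *Slc16a10* were also those with the highest means over 10 neuron and over 7 Schwann cell markers. For neurons these were 7.35 and 7.46 in the homozygous basal and 6.66 and 6.90 in the wild-type middle pieces. For Schwann cells they were 8.02 and 8.53, and 8.14 and 7.59, in the same order. The part of tissue composition in these values was not tested. The genes most like *Slc16a10* over the 12 libraries were *Nt5dc1* (Pearson's r of log2 levels 0.977), *Klf3* (0.971) and *Tor4a* (0.970).

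**Figure D4:**
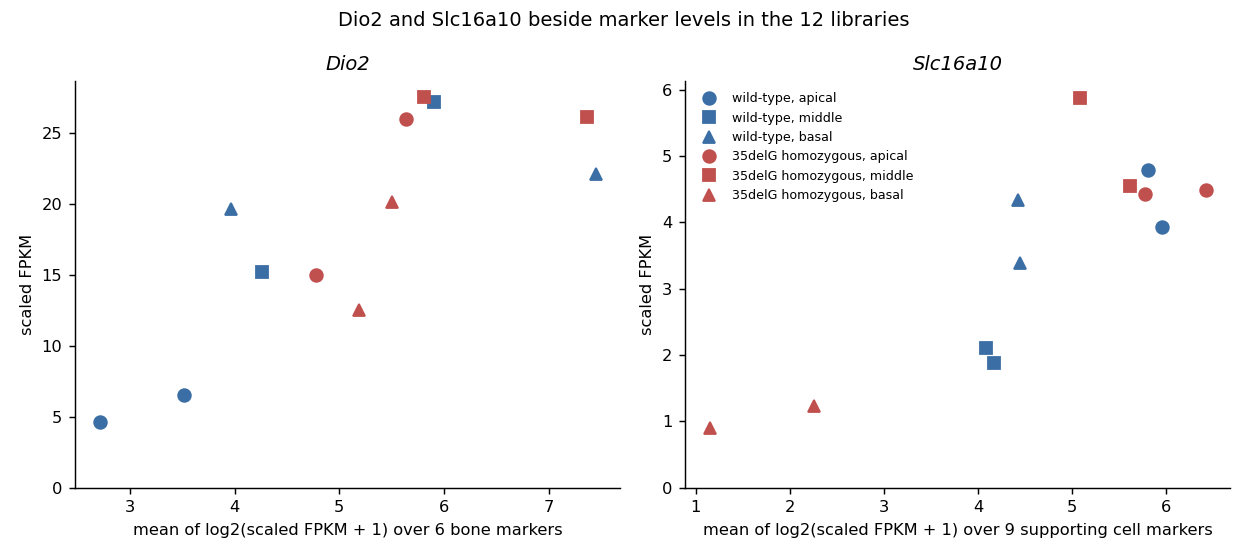
Scaled FPKM (y axes, from 0) of *Dio2* against the mean of log2(scaled FPKM + 1) over 6 bone markers, and of *Slc16a10* against that over 9 supporting cell markers (x axes), in the 12 libraries. The wild-type apical pieces are lowest in *Dio2* (4.66 and 6.53) and in the bone markers (2.71 and 3.51), and the homozygous basal and wild-type middle pieces are lowest in *Slc16a10* (0.907 to 2.10) and in the supporting cell markers (1.15 to 4.17).

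*Crym*, on chromosome 7 from 120186380 to 120202111, encodes mu-crystallin, a cytosolic protein that binds T3 and is linked to deafness in humans. In the wild-type turns it stood at 5.78 and 5.85, 4.24 and 2.42, and 3.01 and 4.24 from apex to base. The homozygous pieces had 4.93 and 5.74, 3.50 and 2.57, and 6.77 and 5.69. The homozygous basal pieces were thus above the wild-type ones, with a difference of 0.65 (SE 0.24, limma adjusted p = 0.0949), and the homozygous apical pieces were just under the wild-type ones (-0.11, SE 0.24, adjusted p = 0.868). The difference between those effects was 0.76 (SE 0.34, adjusted p = 0.18), and the mean over the turns was 0.15 (SE 0.14, 95% interval -0.16 to 0.47, adjusted p = 0.62, exact permutation p = 0.426). None of these passed the test. The 10 neuron markers summed to 4137 and 4574 in the homozygous basal pieces and to 78.1 and 1138 in the wild-type ones. They did not follow *Crym* in the other turns. The wild-type middle pieces had sums of 2748 and 3547 with *Crym* at 4.24 and 2.42. The homozygous apical pieces had sums of 268 and 623 with *Crym* at 4.93 and 5.74. The part of neurons in the *Crym* values was not tested.

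*Klf9*, on chromosome 19 from 23141226 to 23168134, encodes a zinc finger factor that thyroid hormone and glucocorticoids induce in many tissues. The wild-type pieces had 59.6 and 52.7 at the apex, 59.1 and 69.7 further down and 86.0 and 55.8 at the base. The homozygous pieces had 46.5 and 50.6, 50.7 and 50.5, and 54.0 and 55.7. In each turn both homozygous values were under both wild-type values, by a small margin in the basal turn, whereas over all turns the genotypes overlapped between 52.7 and 55.7. The differences were -0.20, -0.34 and -0.33 (SE 0.20 each) from apex to base, and the mean was -0.29 (SE 0.12, 95% interval -0.56 to -0.02, limma adjusted p = 0.229). Without wild-type basal 1, the library with 86.0, the mean was -0.19 (adjusted p = 0.345), and over the fits that left out 1 library it ran to -0.39 (adjusted p = 0.036, without wild-type basal 2). The exact permutation gave p = 0.00926, the smallest that it can give, and it takes the pieces as independent.

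Of the 7 members to which the exact permutation was applied, *Klf9* and *Dio3* had an exact p under 0.05, and both were lower in homozygous cochlea in 3 of 3 turns. Of the 16215 tested genes, 11.7% had an exact p under 0.05 and 3.59% had the smallest one, so such a p is not rare in these libraries, and the exact p-values are not adjusted. *Klf9* was the 1 of the 6 members in the fit besides *Thrb* that reached it, since *Dio3* was not among the genes tested. The genes most like *Klf9* were *AV356131* (Pearson's r of log2 levels 0.933), *Scgb2b27* (0.929) and *Scgb1b27* (0.929), of which the last pair was at most 5.12 in any library.

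*Hr*, on chromosome 14 from 70553687 to 70573548, encodes the corepressor hairless, a direct target of thyroid hormone in the brain. In the apical turn all 4 pieces were close, at 6.58 and 6.56 for wild-type and 6.87 and 6.73 for homozygous cochlea. The middle pieces had 7.01 and 8.63 against 5.79 and 8.63. The wild-type basal pieces had 14.0 and 7.47 and the homozygous ones 6.42 and 4.57. The basal difference was -0.81 (SE 0.28, 95% interval -1.46 to -0.16, limma adjusted p = 0.0824), and the mean over the turns was -0.29 (SE 0.16, adjusted p = 0.391, exact permutation p = 0.222). That basal value was -0.40 without wild-type basal 1, the library with 14.0, and -1.22 without wild-type basal 2. *Klf9* had its highest value in that library too.

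Across the set, none of the 6 tested members besides *Thrb* was called in the mean over the turns, where limma called 0.376% of all genes, or in the apical or the middle turn, where it called 0.179% each. At an unadjusted p under 0.05 the mean over the turns held 1 member above 0 (*Dio2*) and 1 under 0 (*Klf9*), where 18.6% of all genes reached that p. The median difference of the 6 was 0.04, against 0.00 for all genes tested. Libraries of the genotypes did not overlap for 5 of the 6 in apical, for 2 in middle and for 4 in basal pieces, and this held for 59.0%, 59.5% and 54.0% of all genes. Over 6 libraries against 6 no member but *Thrb* was free of overlap, against 1.47% of all genes.

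The wider pathway was followed in 47 tested genes besides *Thrb*, the members included: retinoid X receptors, coregulators, transport and binding proteins, selenoprotein factors, response genes and genes whose cochlear expression is known to depend on the hormone. In the mean over the turns 1 was called higher and 1 lower, and their median difference was -0.02. In the apical turn 1 rose, in the middle turn 1 rose and in the basal turn 4 fell, beside the shares of all genes given above. These counts rest on single libraries: with 1 library left out they ran from 0 to 4 in the mean, from 0 to 1 for the apical turn, from 0 to 3 for the middle turn and from 1 to 6 for the basal turn, and leaving out any library of the apical turn gave 0 in the mean. The retinoid X receptors, the partners of both hormone receptors, had no call. *Rxrb* stood between 18.2 and 19.7 for wild-type and between 20.2 and 23.3 in homozygous libraries, which did not overlap (mean difference 0.19, SE 0.07, limma adjusted p = 0.182), and *Rxra* between 11.3 and 15.4 against 9.67 and 14.2. Of the 10 coregulators none was called in the mean or in any single turn. The corepressor *Ncor1* lay between 19.5 and 34.3 for wild-type and between 15.2 and 24.8 in homozygous libraries, and *Hdac3*, the deacetylase of that complex, between 36.2 and 59.4 against 48.4 and 72.7.

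Among the transport and binding genes, 3 of 10 fell in the basal turn, where 4.29% of all genes were called. In the same pieces none of the 6 spiral ligament markers (median -1.93) and none of the 3 erythroid markers (median -3.00) had a difference above 0, and their part in these values was not tested. *Slc16a10* is described above. *Slco1c1*, which carries T4 into brain and other tissues, was at 206.6 and 136.9 for wild-type basal pieces and at 55.4 and 40.7 for homozygous ones (-1.80, SE 0.26, limma adjusted p = 0.00546). *Ttr*, the carrier transthyretin, was at 97.0 and 21.3 against 1.75 and 0.909 (-4.35, SE 0.56, adjusted p = 0.00483). In the apical and middle turns no gene of this list passed. *Slc3a2*, the heavy chain of the amino acid transporters that also carry thyroid hormone, stood between 31.9 and 48 for wild-type and between 55.2 and 75.5 in homozygous libraries, which did not overlap. Its mean difference of 0.61 (SE 0.08, adjusted p = 0.00959) was under 2-fold and so not called. *Slc7a8* of the same list did not overlap either, between 9.66 and 11 for wild-type and between 11.4 and 29.8 in homozygous libraries. In the mean over the turns no gene of this list was called. At an adjusted p under 0.05, 1 of the 10 was higher and 1 lower.

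The response genes besides *Klf9* and *Hr* gave no call in any turn or in the mean. *Mbp*, a myelin gene that thyroid hormone raises in brain, ranged from 142.3 to 11823.4, with its highest values in the libraries that held oligodendrocyte markers. *Atp2a2*, the calcium pump of the endoplasmic reticulum, had a mean difference of -0.08 (SE 0.13, limma adjusted p = 0.811). *Dbp* lay between 26.2 and 46.4 for wild-type and between 16.8 and 37.2 in homozygous libraries, and *Me1*, malic enzyme, between 19.2 and 30.1 against 13.5 and 23.6. The median difference of the 12 response genes in the mean over the turns was -0.19, with 3 of 12 above 0.

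Of the 7 genes with hormone-dependent expression in the cochlea, *Slc26a5*, *Otof*, *Tecta* and *Tectb* are also in the marker lists of hair or supporting cells. *Tecta*, a protein of the tectorial membrane, rose in the apical turn from 0.785 and 0.678 to 81.3 and 47.8 (5.19, SE 0.52, limma adjusted p = 0.00517) and in the mean over the turns (2.56, SE 0.30, adjusted p = 0.00577). *Otof*, the calcium sensor of inner hair cell synapses, fell in the basal turn from 32.2 and 20.7 to 0.0982 and 0.109 (-4.60, SE 0.42, adjusted p = 0.00162) and in the mean (-2.07, SE 0.24, adjusted p = 0.00577). *Slc26a5*, which encodes prestin, rose in the middle turn from 0.0255 and 0.876 to 7.78 and 11.7 (2.93, SE 0.34, adjusted p = 0.00889). In the homozygous basal pieces, where *Otof* was near 0, the whole hair cell list was at 5.06 and 8.25, and in the wild-type middle pieces, where *Slc26a5* was low, it was at 20.3 and 89.2, against 213 and 387 in the homozygous middle ones. The part of cell content in these genes was not tested. *Tectb*, another tectorial membrane gene, had 63.1 and 84.7 in wild-type apical pieces against 367.8 and 269.4 for homozygous ones (2.09, SE 0.88, adjusted p = 0.287). The potassium channel genes *Kcnj10* and *Kcnma1* had no call.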

How the data were processed

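Male mice at P14 were sampled by cochlear turn, 2 libraries for each of 6 groups. Per the labels and the study's methods, RNA was extracted with a miRNeasy Micro kit, and paired 150 nt reads were sequenced. The submitters' processing notes name fastp 0.20.0, STAR 2.7.3a, featureCounts 2.0.0, StringTie 2.0, deepTools 3.3.1, DESeq2 1.30.0 and the build mm10. The authors deposited FPKM per gene and library, which were used here. Strand setting was not given in the sources used here.

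FPKM were scaled by 1 factor per library from 11552 genes, and log2(scaled FPKM + 1) was fitted with limma 3.58.1 (R 4.3.3) over 6 group means, with a trend in the prior variance, on 16215 genes with at least 1 FPKM in at least 2 libraries. The fit and the step search were tested on simulated data. The exact permutations and figures used Python 3.11.15. Marker and pathway genes came from fixed lists, of which *Slc17a4* had no row. The text names the members, *Gjb2*, *Nr1d1*, genes within 1 Mb of *Thrb*, the imprinted domain of *Dio3* and the genes most like a member. It also names called pathway genes, those of highest level in each pathway list, and markers that move with a result. Not all genes the rule covers are reported. *Rxra*, *Slc7a8*, *Dbp*, *Me1*, *Kcnma1* and the sex-linked *Ddx3y*, *Uty*, *Kdm5d* and *Xist* were named after their values were seen. The members, lists and tests were chosen with earlier results of these data known. The alternatives were another pseudocount, filter, scaling, trend, block or threshold, and each library left out.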

Additional observations from a re-analysis of the deposited data

Results flagged for a closer look

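The genotype effect on *Slc16a10* was called as different between the basal and middle turns. Its difference was -2.28 on the log2 scale (SE 0.27, limma adjusted p = 0.00227), with both homozygous pieces above both wild-type pieces in the middle turn and under them in the basal turn. Most but not all of the 9 supporting cell markers moved in the same directions. The genotype difference was above 0 for 6 of 9 in the middle turn (median 1.26) and for 1 of 9 in the basal turn (median -1.67). The 10 neuron markers moved the other way, with medians of -3.54 and 4.05. The part of either in the difference was not tested.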

How the results depend on the processing

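Member values were recomputed only for comparisons with an unadjusted limma p under 0.05 in the main fit. None of these changed sign under any alternative tried. Of the 531 recomputed values, 501 stayed on their side of the threshold, 27 lost a call and 3 gained one. The other member comparisons were not checked for a change of sign. The lost calls were those of *Slc16a10*. With no filter, or with only the libraries compared, the count of members called went from 1 to 0 in the basal turn, in homozygous apical minus basal and in homozygous middle minus basal. The differences of *Slc16a10* stayed at -1.23, 1.41 and 1.58, while the genes called in the basal turn went from 696 to 89 of all genes with no filter and to 0 with only the 4 basal libraries, so the latter fit could call no member. A filter of 5 FPKM gave 0 there and in the difference between the basal and middle effects, since *Slc16a10* was then not among the genes tested. With each library left out, where the lone sample of a group is assumed to vary like the other groups, these 3 counts ran from 0 to 1. At an adjusted p under 0.05 the count became 1 in the middle turn and 2 in the difference between the basal and apical effects, with *Slc16a10* and *Dio2*.

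For the pathway genes, the counts were 2 for the mean over the turns, 1 for the apical, 1 for the middle and 4 for the basal turn. A pseudocount of 0.1 gave 1, 0, 0 in the first 3, and no filter gave 0, 0, 0 and 1. With only the libraries compared the middle and basal counts were 0, as they were for all genes, and with a filter of 5 FPKM or without the 4 libraries with oligodendrocyte markers, an alternative chosen after seeing the data, the middle count was 0. At an adjusted p under 0.05 they were 4 for the mean, 4 for the middle and 8 for the basal turn. Leaving out each library gave 0 to 4, 0 to 1, 0 to 3 and 1 to 6. The causes were not tested.

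Whether the replicate numbers pair the samples is not known. The correlation of deviations from the group means was -0.07, -0.01 and 0.21 between the genotypes of a turn. Between the turns of a genotype it ran from -0.29 to 0.05 in wild-type and from -0.41 to 0.27 in homozygous cochlea. Between groups unlike in both it ran as widely, from -0.43 to 0.45, so these values cannot decide it. The replicate block lowered the genes called in the mean over the turns from 61 to 34, left the members' counts at 0 in the mean and 1 in the basal turn, and gave 0 pathway genes in the mean, apical and middle turns. Crossed numbers, added after seeing the data, gave 0 members and 0 of all genes in the 3 turn comparisons they were applied to, which says nothing of the members. With 2 libraries a group and depth known only in steps, the values of low genes such as *Dio3* rest on few reads.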
